A study of Homo sapiens with 16 samples.

Results

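The messenger RNAs of the cytosolic ribosomal proteins were followed in HMC3 cells through 8 conditions. Genes were taken by symbol from the table of raw counts (RPL or RPS and a number, with an optional A or X, together with RPLP0, RPLP1, RPLP2 and RPSA), and a mean of at least 50 counts over the 16 libraries was required. Of 77 symbols that matched, 76 met this limit, out of 25370 genes in the table. They comprised 42 genes of the large subunit, the 3 genes of its P stalk, and 31 genes of the small subunit, and all 76 were tested. RPL21, with 0 to 3 counts in a library, was the gene left out. The lowest gene kept was RPL36A with a mean of 145.25 counts, followed by RPL17 with 720.81 and RPS10 with 734.19, and the next, RPL13A, had 10502.8.

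HMC3 is an established human microglial cell line. Cells received vehicle, 0.1 nM estradiol (E2), 400 nM ketamine, 400 nM 2R6R-HNK or 400 nM 2S6S-HNK, or one of the 3 drugs at that dose together with 0.1 nM E2, and 2 libraries were made for each condition. HNK stands for hydroxynorketamine, and the 2R6R and 2S6S forms are mirror-image metabolites of ketamine. The libraries held 55300614 to 81646165 counts. Separate cultures are not named in the sources used here, so p-values measure only the spread between these libraries, which may be technical, and a single cell line stands behind every value. Of the 12 microglia markers, AIF1, CX3CR1, P2RY12, TMEM119, PTPRC, ITGAM, TYROBP and SPI1 had at most 7 counts in any library and C1QA had 0 counts in all 16, which allows up to 3 counts in each. CSF1R and TREM2 stayed between 24 and 89 counts. CD68 was the marker with the most, at 17.3 to 23.2 CPM (here counts scaled to library totals alone). The labelled cell type was thus not supported by its defining markers. Of 7 fibroblast markers, COL1A1 (3844 to 5322 CPM on the same scale), COL1A2, PDGFRB and THY1 were tested. COL3A1, LUM and DCN had at most 12 counts in any library. For the ribosomal protein genes below, CPM stands for counts scaled to library size after TMM, edgeR's trimmed mean normalization.

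The ribosome is built of a small subunit that reads the messenger RNA and a large subunit that joins amino acids, and each ribosomal protein is needed in about equal amounts, so their genes are often treated as one block. Their messenger RNAs carry a run of pyrimidines (C or T) at the 5′ end, the terminal oligopyrimidine or TOP element, through which translation of these messages follows mTOR and LARP1. The large subunit carries a flexible stalk of P proteins that calls in the elongation factors. Several proteins also act outside the ribosome: RPL5 and RPL11 bind MDM2 and stabilise p53 when assembly fails, and RPS27A is made as a fusion with ubiquitin.

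The start sites of a few members are shown because the TOP element is what the family shares in sequence and was not used to choose it. A start-site window of 30 bases, 15 before the annotated start and 15 from it onward, was available in RefSeq (GRCh38.p14) for 61 of the 76 members. The windows below are written 5′ to 3′ with the longest pyrimidine run in capitals.
RPLP0: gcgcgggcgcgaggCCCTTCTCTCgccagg
RPL28: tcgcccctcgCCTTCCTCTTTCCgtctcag
RPS24: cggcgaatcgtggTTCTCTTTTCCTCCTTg
RPS6: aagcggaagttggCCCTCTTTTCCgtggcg
RPS3: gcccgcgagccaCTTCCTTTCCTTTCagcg
RPL3: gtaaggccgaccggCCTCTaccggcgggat
These lie at chr12:120201097-120201126 on the minus strand (RPLP0), chr19:55385917-55385946 on the plus strand (RPL28), chr10:78033848-78033877 on the plus strand (RPS24), chr9:19380222-19380251 on the minus strand (RPS6), chr11:75399503-75399532 on the plus strand (RPS3) and chr22:39319609-39319638 on the minus strand (RPL3). RPLP0, RPL28 and RPS3 were among the genes that rose in every treatment described below, RPS24 and RPS6 among those that fell, and RPL3, whose longest run is 5 bases, is shown for contrast. A run of at least 8 pyrimidines on the given strand was found in 46 of the 61 windows (75.4%), against 13.2% of 15843 protein-coding genes with a promoter entry. A C at the annotated start followed by 4 pyrimidines was found in 41 (67.2%), against 4.60%. Both groups of members held genes that rose and genes that fell: under E2+ketamine, the 46 with the long run had a median log2 fold change against vehicle of 0.15 (28 higher, 15 lower) and the 15 without it a median of 0.29 (10 higher, 4 lower).

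As a share of all counts, the 76 genes together took 6.72% to 7.81% of a library. The share was 6.78% and 6.72% in the vehicle libraries and 6.76% and 6.81% with E2. It was 7.21% and 7.23% with ketamine, 7.52% and 7.59% with 2R6R-HNK, and 7.52% and 7.42% with 2S6S-HNK. With E2+ketamine it reached 7.81% and 7.64%, with E2+2R6R-HNK 7.39% and 7.26%, and with E2+2S6S-HNK 7.45% and 7.54%. Each of the 6 conditions that contained a drug thus lay above both vehicle and E2 in both libraries, whereas E2 alone overlapped vehicle. On the TMM scale used for single genes the differences were smaller for some conditions: the summed level was 68311 and 67802 CPM in vehicle, 67478 and 68023 with E2, 68749.7 and 69159.5 with ketamine, 76247 and 77112 with 2R6R-HNK, and 75924 and 76234 with 2S6S-HNK. It was 82789 and 81655 with E2+ketamine, 74648 and 73286 with E2+2R6R-HNK, and 70109 and 70392 with E2+2S6S-HNK, so that ketamine lay close to vehicle and E2+2S6S-HNK below E2+2R6R-HNK. An exact permutation test of 2 libraries against 2 cannot go below p = 0.333 (two-sided), so these shares are given without a test. Without RPS2, RPLP0 and RPL4, the members with most counts, vehicle had a mean share of 5.95% and E2 one of 5.83%. The drug conditions then gave 6.24% for ketamine, 6.46% for 2R6R-HNK, 6.41% for 2S6S-HNK, 6.56% for E2+ketamine, 6.29% for E2+2R6R-HNK and 6.58% for E2+2S6S-HNK, so that E2+ketamine was no longer the highest. In bulk RNA a change in the number of cells and a change in RNA per cell cannot be told apart.

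**Figure D1:**
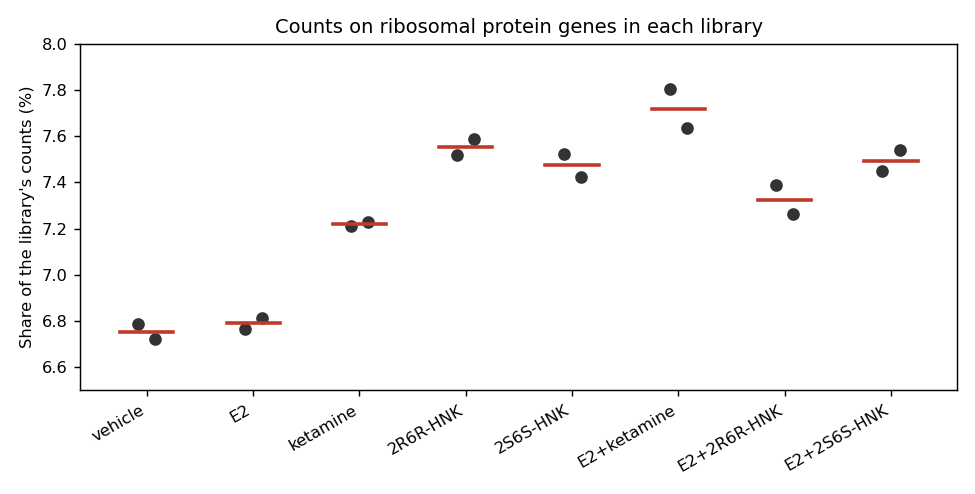
Share of each library's counts that fell on the 76 cytosolic ribosomal protein genes (y axis, %, starting at 6.5) in the 8 conditions (x axis); points are libraries and red lines are means of 2. Vehicle and E2 libraries sit between 6.72% and 6.81%, and the libraries of every drug condition sit at 7.21% or above.

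Per kilobase of transcript, members differed widely in level. In vehicle RPS18 had a mean of 3663 CPM per kb, RPS2 3650.4 and RPLP0 3255, while the members in the middle of the order lay close to 1212. RPL36A (3.47 CPM per kb), RPS10 (17.2) and RPL17 (19.9) stood far below. Each of these 3 overlaps an annotated read-through gene that is also in the count table (RPL36A-HNRNPH2 over 333 bases, RPS10-NUDT3 over 494 and RPL17-C18orf32 over 595), so their counts are uncertain. Many members also have processed pseudogenes, 87 named ones for RPL23A and 80 for RPL7A, with which reads can be shared.

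The transcripts did not move as one block. Calls were made with edgeR's quasi-likelihood test at an adjusted p (Benjamini-Hochberg over 16004 genes) under 0.05, without a limit on the fold change. With E2, 28 members rose against vehicle and 38 fell, where 29.9% of all genes tested were called higher and 32.7% lower. With ketamine 32 rose and 32 fell (all genes: 26.8% and 32.5%). With 2R6R-HNK 45 rose and 24 fell (31.7% and 34.9%), and with 2S6S-HNK 48 rose and 25 fell (32.1% and 35.8%). With E2+ketamine 48 rose and 23 fell (34.3% and 37.4%), with E2+2R6R-HNK 41 rose and 25 fell (33.4% and 36.3%), and with E2+2S6S-HNK 43 rose and 21 fell (24.0% and 35.7%). The medians of the members' log2 fold changes were -0.05, 0.01, 0.14, 0.15, 0.19, 0.10 and 0.07 in that order, against medians between -0.06 and 0.00 over all genes. All 7 comparisons share the 2 vehicle libraries. Another scaling moved higher calls, as a share of the members called in either direction, by over 10 percentage points for 3 treatments. With upper-quartile factors there were 34 higher and 28 lower for E2, 42 and 22 for ketamine, and 55 and 13 for E2+2S6S-HNK. Library totals alone gave 42 and 23 for ketamine and 55 and 13 for E2+2S6S-HNK. For E2+2R6R-HNK, upper-quartile factors gave 50 and 24 where TMM gave 41 and 25. Shares of all genes called with these 2 scalings are not given.

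Across the 7 treatments 25 members were called higher in every one (all genes: 13.4%), among them RPLP0, RPLP1, RPSA, RPS3, RPS19, RPL10, RPL13A, RPS2 and RPL28. A further 17 were called lower in every one (all genes: 21.4%), among them RPS6, RPS24, RPS27A, RPL5, RPL6, RPL7 and RPL11. Another 18 were called in both directions, depending on the treatment (all genes: 11.8%), among them RPS26, RPS18, RPL41, RPL3, RPL10A and RPL19. These directions hold for TMM scaling. With upper-quartile factors or library totals RPL5 turned to 0.03 with E2+2S6S-HNK. With the correction for GC content and length described below, examples of a changed sign there were RPL5 (0.12), RPS6 (0.07) and RPS2 (-0.08). RPL5 also changed sign with ketamine (0.01), as did RPS19 (-0.06) and RPL13A (-0.03) with E2. These are examples, and how many of the 25 and 17 members kept their direction with the correction is not given.

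**Figure D2:**
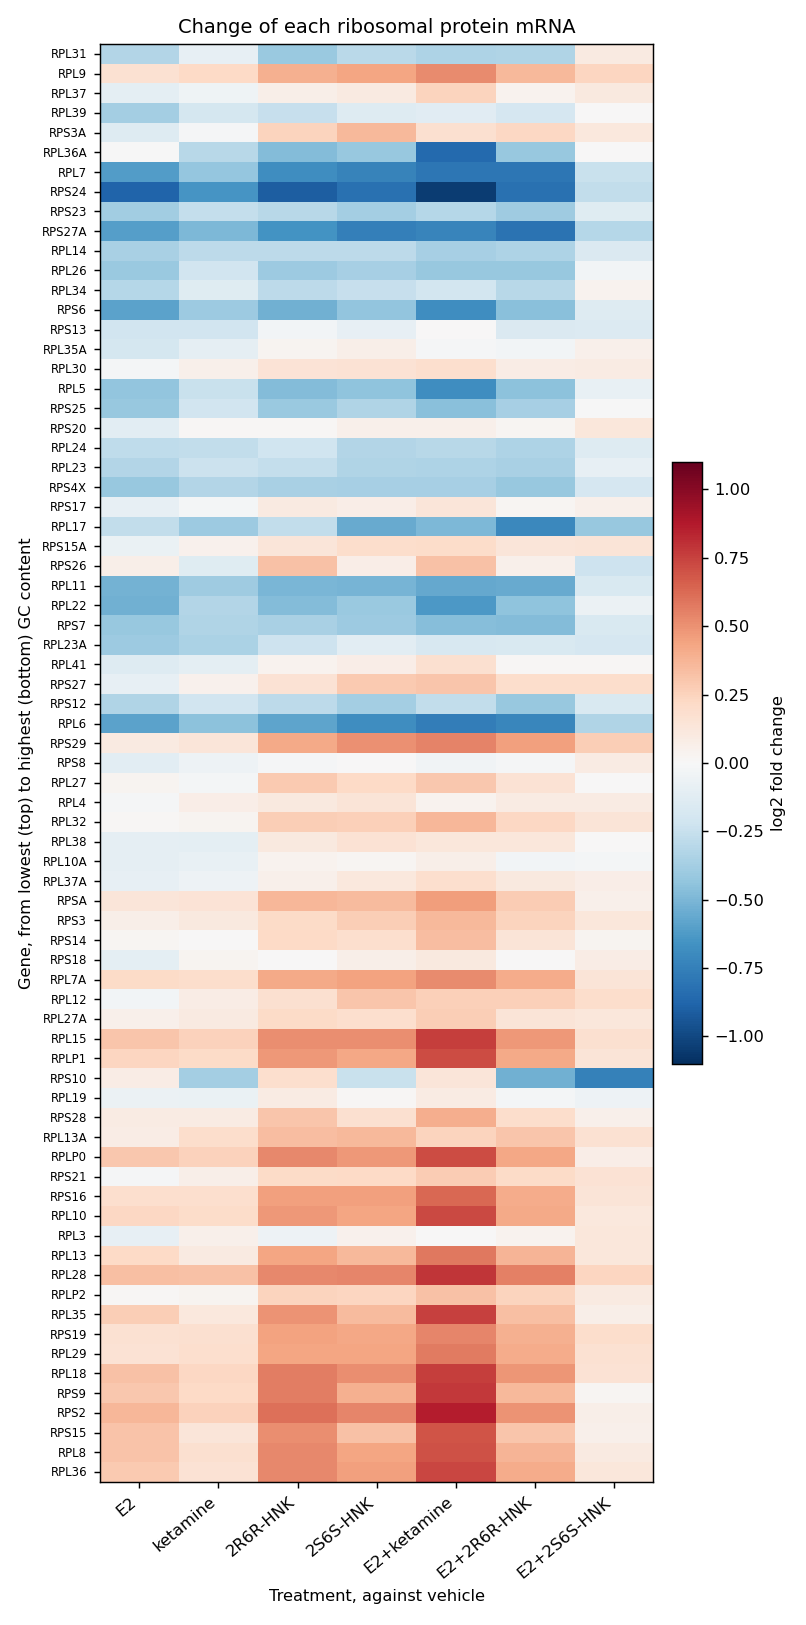
log2 fold change against vehicle (colour, red higher and blue lower) of 73 of the 76 genes (rows, ordered from lowest to highest GC content of the transcript) under the 7 treatments (columns). The 17 genes lower in all 7 treatments lie in the upper part, and most of those that were higher in all lie in the lower part.

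Among transcripts of the small subunit, RPS2 rose and RPS24 fell in all 7 treatments. RPS2 (ENSG00000140988, GRCh37 chr16:2012059-2014842), a protein near the entry of the messenger RNA channel, measured 3049 and 2949 CPM in vehicle, 3822.5 and 3905.5 with E2, 3617 and 3551 with ketamine, 4547 and 4593.5 with 2R6R-HNK, 4381 and 4302 with 2S6S-HNK, 5431 and 5480.4 with E2+ketamine, 4327 and 4139 with E2+2R6R-HNK, and 3156 and 3117 with E2+2S6S-HNK. All 14 treated libraries lay above both vehicle libraries, the E2+ketamine pair highest and the E2+2S6S-HNK pair nearest to vehicle. The log2 fold change was 0.37 ± 0.018 (SE; adjusted p = 5.95e-23 in edgeR) with E2, 0.86 ± 0.018 (adjusted p = 2.14e-38) with E2+ketamine, and 0.06 ± 0.018 (adjusted p = 0.00201) with E2+2S6S-HNK.
RPS24 (ENSG00000138326, GRCh37 chr10:79793518-79816571), mutated in some patients with Diamond-Blackfan anemia, went the opposite way, with 792 and 814 CPM in vehicle, 438 and 432 with E2, 515 and 509 with ketamine, 428 and 430.5 with 2R6R-HNK, 459 and 449 with 2S6S-HNK, 389.9 and 387 with E2+ketamine, 459 and 453 with E2+2R6R-HNK, and 656 and 676 with E2+2S6S-HNK. Every treated library was below vehicle. The log2 fold change was -0.88 ± 0.023 (adjusted p = 4.61e-34) with E2, -1.05 ± 0.023 (adjusted p = 5.25e-38) with E2+ketamine, a level 0.484 times that of vehicle, and -0.27 ± 0.022 (adjusted p = 5.27e-15) with E2+2S6S-HNK.

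Among the other small-subunit genes, RPS6, whose protein is phosphorylated downstream of mTOR, measured 1413 and 1399 CPM in vehicle, 942 and 930.1 with E2, 1066 and 1061 with ketamine, 883 and 869 with E2+ketamine, and 1265 and 1279 with E2+2S6S-HNK. It fell in all 7 treatments, by 0.14 to 0.68 on the log2 scale. RPS27A fell by 0.31 to 0.81, from 456 and 449 CPM in vehicle to 263 and 254 with E2+2R6R-HNK, where it was lowest. RPSA, also known as a laminin receptor, rose by log2 values between 0.06 and 0.46, RPS3, at the entry of the messenger RNA channel, by 0.07 to 0.36, and RPS19, the gene most often mutated in Diamond-Blackfan anemia, by 0.17 to 0.54. RPS29, at a log2 value of 0.27, had the largest rise of any member under E2+2S6S-HNK.

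RPS26, which contacts the messenger RNA at the exit of its channel, changed direction with the treatment. Its levels were 351 and 341 CPM in vehicle, 362 and 362 with E2, 316 and 316 with ketamine, 431 and 435 with 2R6R-HNK, 366 and 362 with 2S6S-HNK, 438 and 429 with E2+ketamine, 365 and 353 with E2+2R6R-HNK, and 295 and 296 with E2+2S6S-HNK. Both 2R6R-HNK and E2+ketamine lay above vehicle, by log2 values of 0.32 and 0.33, and both ketamine and E2+2S6S-HNK lay below it, by -0.13 and -0.23. With the correction for GC content and length described below, RPS26 was at 0.03 with ketamine and -0.09 with E2+2S6S-HNK. RPS18 was lower with E2 (-0.11 ± 0.019) and higher with E2+ketamine (0.10 ± 0.019).

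On the large subunit all 3 genes of the P stalk rose in 5 of the 7 treatments. RPLP0, its base, measured 2741 and 2770.2 CPM in vehicle, 3378 and 3403 with E2, 3299 and 3268 with ketamine, 3963 and 3995 with 2R6R-HNK, 3785 and 3905 with 2S6S-HNK, 4565 and 4476 with E2+ketamine, 3722 and 3662 with E2+2R6R-HNK, and 2904 and 2905 with E2+2S6S-HNK. No treated library overlapped vehicle. With E2+ketamine RPLP0 rose by a log2 value of 0.71 ± 0.017 and RPLP1 by 0.72 ± 0.020, while RPLP2, which like RPLP1 binds RPLP0 as part of a dimer, rose by 0.32 ± 0.022. RPLP2 did not pass the test with E2 (0.02 ± 0.022, adjusted p = 0.581) or with ketamine (0.03 ± 0.022, adjusted p = 0.221). Expressed relative to genes of like GC content and length (below), RPLP2 turned to -0.12 with E2+ketamine, whereas RPLP0 stayed at 0.48 and RPLP1 at 0.60.

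RPL28, a protein of the surface of the subunit, rose in all 7 treatments, from 482 and 472 CPM in vehicle to 808 and 842 with E2+ketamine (0.79 ± 0.023). RPL10, which joins the subunit late in assembly, rose from 1440 and 1436 CPM to 2399.9 and 2345 (0.72 ± 0.019). RPL13A, which has a role outside the ribosome in silencing inflammatory messages, rose by 0.08 to 0.35 at a level of only 134 to 174 CPM.
Against these, RPL5 fell from 982 and 992 CPM in vehicle to 625 and 601 with E2+ketamine (-0.69 ± 0.022), and its partner RPL11 from 782 and 798 CPM to 544 and 528 (-0.56 ± 0.022). RPL7 was lower by 0.25 to 0.80 on the log2 scale and RPL6 by 0.33 to 0.76. RPL36A was lower with E2+ketamine by -0.85 ± 0.183, but on 1.42 and 1.50 CPM against 2.62 and 2.67 in vehicle, and with the overlap noted above.

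The members whose condition means differed least were RPL4, RPL10A and RPL19, each within a range of 0.16 on the log2 scale. RPL4, which lines the exit tunnel, stayed between 2323 and 2603 CPM over all 16 libraries. RPL3, close to the peptidyl transferase centre, changed by -0.09 to 0.12, and RPL41, a very short protein, by -0.14 to 0.18.

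**Figure D3:**
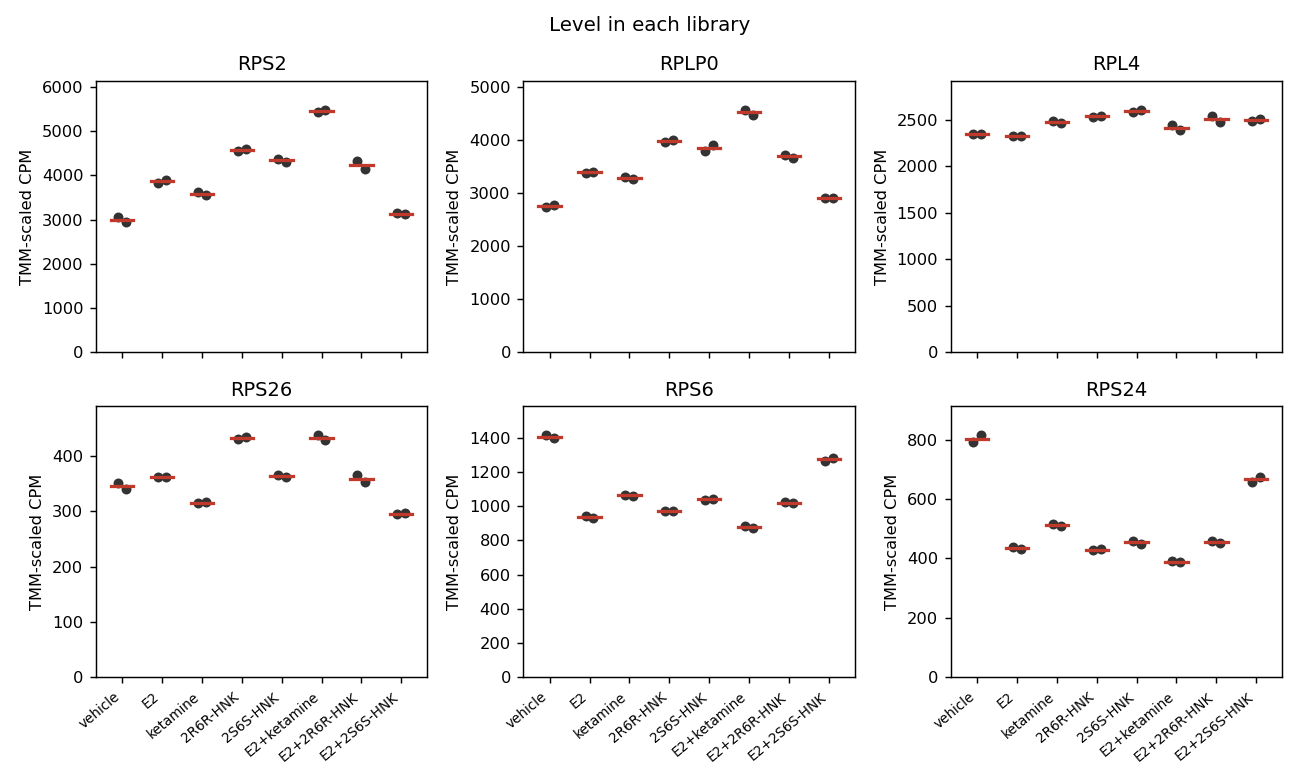
TMM-scaled CPM (y axes, from 0) of RPS2, RPLP0, RPL4, RPS26, RPS6 and RPS24 in each library of the 8 conditions; points are libraries and red lines means of 2. RPS2 and RPLP0 peak with E2+ketamine, where RPS24 and RPS6 are lowest, RPS26 lies on both sides of vehicle, and RPL4 stays between 2323 and 2603 CPM.

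The direction of a member followed the GC content of its transcript. GC content, the median over a gene's protein-coding transcripts, ranged from 42.2% to 62.7% among the members, with a median of 49.98%, against 50.3% over 15335 genes tested that had a value. The 25 members higher in all treatments had a median of 54.6% and the 17 that were lower in all had 46.7%. Across the 76 genes, which are not independent replicates, Spearman's rho between GC content and log2 fold change was 0.79 for E2, 0.71 for ketamine, 0.78 for 2R6R-HNK, 0.70 for 2S6S-HNK, 0.77 for E2+ketamine, 0.72 for E2+2R6R-HNK and 0.46 for E2+2S6S-HNK. Transcript length gave values between -0.16 and -0.02 over the same treatments. The same trend ran through all genes tested, with rho at 0.75, 0.64, 0.75, 0.65, 0.77, 0.66 and 0.44 in the same order. All of these comparisons share the vehicle libraries, so they are given as descriptions.

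Members were therefore set beside genes of like GC content. Of the 37 members at or above the median GC content of the genes tested, 35 rose with E2+ketamine by edgeR's test, while 65.3% of the 7668 such genes rose and 7.75% fell. Their median log2 fold change was 0.52, against 0.51 over those genes. Of the 39 members below it, 13 rose and 23 fell, where 5.33% of the 7667 such genes rose and 68.8% fell, and the medians were -0.27 and -0.60. With 2S6S-HNK the high-GC members gave 34 higher and 1 lower (all such genes: 57.9% and 10.4%), and the low-GC members 14 higher and 24 lower (7.86% and 62.7%). The median of the low-GC members was nearer to 0 than that of other low-GC genes in all 7 treatments, for example -0.31 against -0.39 with E2 and -0.03 against -0.24 with E2+2S6S-HNK. That of the high-GC members was below that of other high-GC genes with E2 (0.16 against 0.30), ketamine (0.15 against 0.20) and E2+2R6R-HNK (0.33 against 0.35), and slightly above it in the other 4 treatments. These differences of medians were not tested.
RPL9 (42.6% GC) and RPS29 (49.4% GC) were the members below that median that rose in all 7 treatments. RPL9 rose by 0.52 ± 0.020 with E2+ketamine. RPL3 (56.3% GC) was the opposite case, a high-GC member that did not pass the test with E2+ketamine (0.01 ± 0.018, adjusted p = 0.77).

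**Figure D4:**
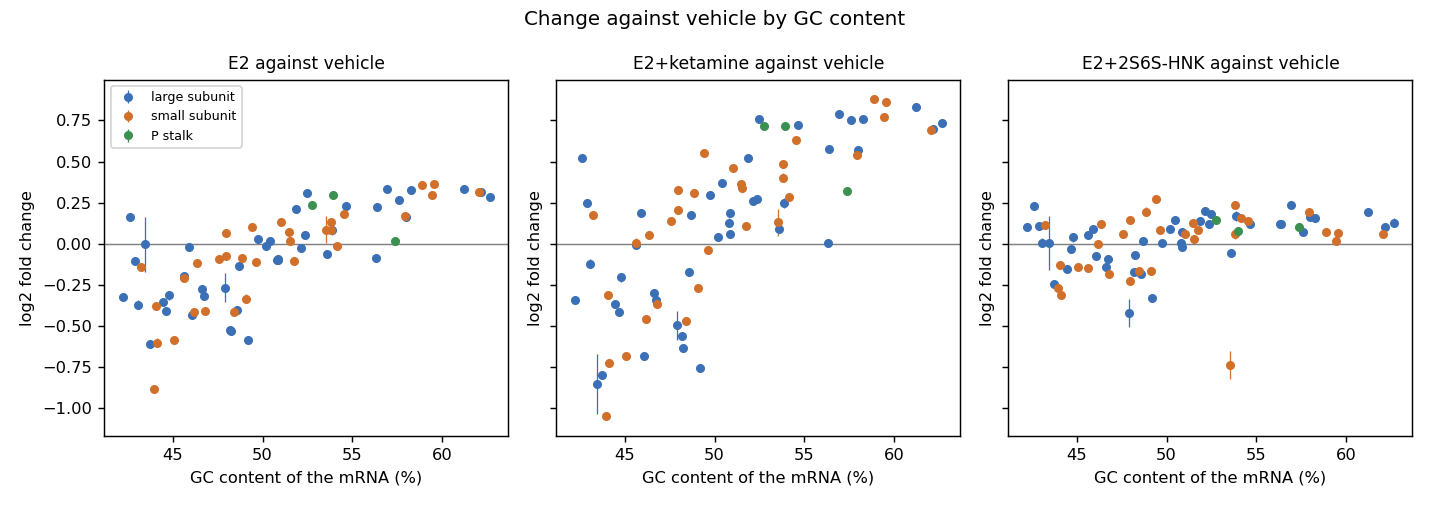
log2 fold change against vehicle (y axes, with SE) of the 76 genes by GC content of the transcript (x axes, %) for E2, E2+ketamine and E2+2S6S-HNK; colours mark the subunit. The change climbs with GC content in the first 2 panels (rho 0.79 and 0.77) and less in the third (rho 0.46), where most points lie near 0.

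When each library was corrected for GC content and length over all genes, the relation among members went to rho between -0.20 and 0.02 in 6 treatments, but to -0.43 with E2+2S6S-HNK, where it was reversed, and to 0.27 in the ketamine interaction described below. The spread of the members (SD of log2 fold change) went from 0.49 to 0.32 with E2+ketamine and from 0.29 to 0.19 with E2, but from 0.173 to 0.178 with E2+2S6S-HNK. With this correction 55 members were higher and 14 lower with E2+ketamine (all genes with that correction: 26.9% and 26.5%), 54 and 16 with 2R6R-HNK (23.5% and 23.2%), and 51 and 18 with 2S6S-HNK (29.1% and 28.7%). There were 50 and 16 with E2+2S6S-HNK (27.9% and 29.2%), 46 and 20 with E2+2R6R-HNK (30.2% and 29.8%), 39 and 21 with ketamine (23.4% and 26.0%), and 34 and 23 with E2 (18.5% and 19.6%). RPS24 then measured -0.48 with E2+ketamine, RPL6 -0.58 and RPS2 0.29. A change in the RNA of the cells that ran with GC content would be removed by the correction along with one made in the libraries, and which of them the trend was, was not tested. Summed markers of other cell types were scaled to library totals alone, without TMM. Those of neurons lay at 80.5 to 133 CPM in treated libraries (106 and 108 in vehicle). Those of astrocytes lay at 5.89 to 10.9 (6.504 and 7.16) and those of oligodendrocytes at 2.03 to 5.76 (2.08 and 2.65). On the same scale of library totals the summed fibroblast markers also moved with treatment, with 4714 and 4717 in vehicle and 4563 to 6276 in treated libraries. Of their 7 genes 4 were tested, and all 4 rose in 6 treatments (all genes: 26.8% to 34.3% higher). With E2+2S6S-HNK 1 rose and 2 fell (all genes: 24.0% and 35.7%). Their part in the results was not tested.

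The effect of ketamine on the members differed in the presence of E2. This interaction, the effect of the drug with E2 minus its effect without E2, was positive and past the threshold in 69 of 76 members and negative in 0 (edgeR), where 24.5% of all genes were called higher and 13.1% lower. At an unadjusted p under 0.05 there was 1 negative member, RPL36A, and DESeq2 called 69 positive and 0 negative. The members' median was 0.24, with quartiles at 0.18 and 0.32, against a median of 0.04 over all genes. All 31 small-subunit genes and all 3 stalk genes were among the 69. The order of the members followed GC content only weakly here (rho = -0.18). Of the members below the median GC content 34 of 39 were called higher, where 31.9% of such genes were, and of those at or above it 35 of 37, where 18.8% were.
The largest differences among members past the threshold were in RPL23A and RPS24. RPL23A, at the exit of the nascent chain tunnel, measured 683 and 676 CPM in vehicle, 532 and 539 with ketamine, 516 and 513 with E2, and 607 and 598 with both. Ketamine thus lowered it without E2, whereas with E2 the ketamine libraries were above those of E2 alone, and the interaction was 0.57 ± 0.031 (adjusted p = 1.48e-20). For RPS24 the interaction was 0.48 ± 0.032 (adjusted p = 2.44e-17; 0.27 with the GC and length correction, where RPL23A had 0.46), for RPL41 0.42 ± 0.029, for RPS26 0.39 ± 0.034 and for RPLP0 0.16 ± 0.024. RPL3, RPL4, RPL5, RPL13A, RPL17, RPL31 and RPL36A did not pass the test, with values from -0.54 ± 0.248 (RPL36A) to 0.17 ± 0.123 (RPL17).

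The size of this shift depended on the scaling. With library totals alone the median of all genes went from 0.04 to -0.13 and 36 members were called higher and 7 lower, and with upper-quartile factors 61 and 4. Relative to the median of all genes, the members' median was 0.20 with each of these scalings. Each scaling shifts all genes of a library alike, so this difference was bound to stay nearly the same and does not test the interaction. With the GC and length correction, which can move genes apart, the difference was 0.16. That correction called 59 members higher and 5 lower (all genes: 19.9% and 15.9%).

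For the metabolites the interaction took both signs. For 2R6R-HNK 35 members were called higher and 29 lower (all genes: 31.5% and 25.2%) with a median of 0.02, and for 2S6S-HNK 31 and 35 (32.9% and 32.2%) with a median of -0.04. With upper-quartile factors the split for 2R6R-HNK was 24 and 36, and with the GC and length correction 19 and 41 (all genes: 22.3% and 22.8%). For 2S6S-HNK the correction gave 21 and 37 (19.4% and 21.0%). The order followed GC content in the reverse sense, with rho = -0.75 for 2R6R-HNK and -0.79 for 2S6S-HNK, against -0.58 and -0.76 over all genes. RPS24 had the largest positive value for both metabolites, 0.97 ± 0.032 and 1.44 ± 0.032. It was followed by RPS6 (0.66 ± 0.027) for 2R6R-HNK and RPL7 (1.0985 ± 0.030) for 2S6S-HNK. The largest negative values named here were those of RPS10 (-0.80 ± 0.116) and RPS15 (-0.52 ± 0.034) for 2R6R-HNK, and that of RPS2 (-0.83 ± 0.026) for 2S6S-HNK. With the GC and length correction the values for 2R6R-HNK were 0.56 for RPS24, 0.34 for RPS6, -0.70 for RPS10 and -0.16 for RPS15. Those for 2S6S-HNK were 0.81 for RPS24, 0.497 for RPL7 and -0.29 for RPS2, and the lowest member was then RPL9 at -1.06. RPS10 measured 12.1 to 14.6 CPM in vehicle, E2 and 2R6R-HNK libraries and 8.52 and 8.73 with E2+2R6R-HNK. All 3 interactions share the vehicle and E2 libraries, so a gene or trend that recurs among them is not a separate finding each time. Whether the interactions of the 3 drugs differ from each other was not tested.

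**Figure D5:**
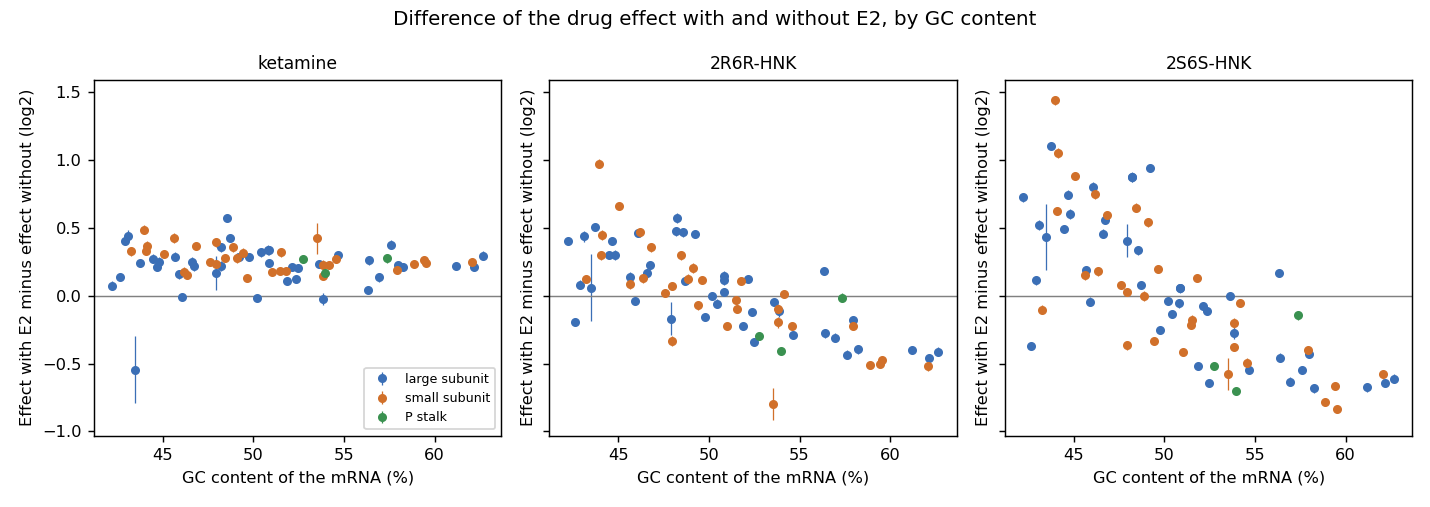
Effect of each drug with E2 minus its effect without E2 (y axes, log2, with SE) of the 76 genes by GC content (x axes, %), for ketamine, 2R6R-HNK and 2S6S-HNK; colours mark the subunit. For ketamine 69 genes are called higher at any GC content, while for both metabolites the values go from above 0 at low GC to below 0 at high GC, and the low point in the first panel is RPL36A.

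Compounds were compared directly at the same dose of 400 nM in 4 pairs, with p-values adjusted over the 4 pairs and all genes. Without E2, differences between the mirror-image metabolites were centred near 0. 2S6S-HNK was above 2R6R-HNK in 18 members and below it in 25 (all genes: 22.7% and 21.3%), with a median of -0.01. The number above was 9 without the first 2R6R-HNK library. The largest differences were in RPS10 (-0.43, 95% interval -0.60 to -0.26) and RPL17 (-0.28, -0.46 to -0.10), both uncertain for overlap, and on the other side in RPS27 (0.13, 0.08 to 0.18) and RPL12 (0.13, 0.09 to 0.17). RPS26 was lower with 2S6S-HNK by -0.25 (-0.30 to -0.20). RPL11 did not pass the test, with a difference of -0.01 and an interval of -0.06 to 0.03.

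In the presence of E2 the same pair gave 28 members higher and 35 lower with E2+2S6S-HNK (24.6% and 28.8%). With library totals alone the split was 41 and 24. RPS24 (0.55, 0.50 to 0.59) and RPL7 (0.55, 0.50 to 0.59) were higher with E2+2S6S-HNK, and RPS2 (-0.43, -0.47 to -0.40) was lower. RPLP0 differed by -0.35 (-0.38 to -0.31) with E2 and by -0.05 (-0.08 to -0.02) without E2. Whether the pair differed more with E2 than without was not tested.

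Ketamine without E2 was below 2R6R-HNK in 49 members and above it in 14 (22.6% and 22.9%), with a median of -0.13, and below 2S6S-HNK in 50 and above it in 15 (24.3% and 22.0%), with a median of -0.16. With library totals alone these became 36 below and 24 above, and 41 and 23. RPLP0 was lower with ketamine than with 2R6R-HNK by -0.28 (-0.31 to -0.24) and than with 2S6S-HNK by -0.23 (-0.26 to -0.19). RPS26 was lower with ketamine than with 2R6R-HNK by -0.45 (-0.50 to -0.40). RPL7 was higher with ketamine than with either metabolite, by 0.26 (0.21 to 0.30) and 0.31 (0.26 to 0.35). RPS6 was higher with ketamine than with 2R6R-HNK by 0.13 (0.09 to 0.17), and against 2S6S-HNK it did not pass the test, with a difference of 0.03 (-0.00 to 0.07).

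Genes around the ribosome were tested in the same fit. Where counts of a list are given, shares of all genes called stand beside them, and for some lists only single genes are named. FAU, which encodes a further small-subunit protein as a fusion with a ubiquitin-like one, rose by 0.66 ± 0.024 with E2+ketamine. Of 6 paralogs tested, 5 were lower in each of the 7 treatments, where 21.4% of all genes were lower in all 7. RPL36AL, a paralog of RPL36A, fell by -0.82 ± 0.035 with E2+ketamine, and RPL39L rose by 0.38 ± 0.053 with 2S6S-HNK.
The 15 other TOP messages, of elongation factors, initiation factors and other proteins, also split, with 5 higher and 10 lower under E2+ketamine (all genes: 34.3% and 37.4%). EEF1D, a subunit of the exchange factor for elongation factor EEF1A1, rose by 0.68 ± 0.024 and NPM1, the nucleolar protein nucleophosmin, fell by -1.25 ± 0.024.

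The 75 genes of ribosome assembly were lower on balance in all 7 treatments. All genes tested were also called lower more often than higher in each treatment (24.0% to 34.3% higher, 32.5% to 37.4% lower). Counts for the list are given here for E2+2S6S-HNK, ketamine and E2+ketamine. Under E2+2S6S-HNK 69 were lower by edgeR's test, with a median of -0.53, where 35.7% of all genes and 52.5% of genes below the median GC content were lower. Under ketamine 1 was higher and 70 were lower, also with a median of -0.53, where 32.5% of all genes and 57.2% of those low-GC genes were lower. The GC content of the list itself was not examined. Under E2+ketamine 19 were higher and 54 lower, with a median of -0.73, where 34.3% of all genes were higher and 37.4% lower, and 68.8% of those low-GC genes were lower. DDX18, a nucleolar helicase, gave the largest fall, -1.32 ± 0.038 with E2+2R6R-HNK, and NOC4L, which acts in assembly of the small subunit, the largest rise, 0.72 ± 0.041 with E2+ketamine. In the ketamine interaction with E2 66 of the 75 were called higher by edgeR, where 24.5% of all genes were called higher and 13.1% lower. Other scalings were not run for this list, and with library totals the median of all genes in this interaction went from 0.04 to -0.13.
The RNA polymerase I machinery, which transcribes ribosomal RNA, gave 3 higher and 14 lower of 19 with ketamine (all genes: 26.8% and 32.5%) and 8 and 10 with E2+ketamine (34.3% and 37.4%). Its extremes were both with E2+2R6R-HNK, a rise of 0.64 ± 0.063 in ZNRD1 and a fall of -1.28 ± 0.090 in TWISTNB, each a subunit of the polymerase.
Of the 8 dedicated chaperones of ribosomal proteins, 5 were lower with ketamine by edgeR's test (all genes: 32.5%) and all 8 had values below 0, with LTV1 at -1.26 ± 0.082, and GRWD1 rose by 0.46 ± 0.037 with E2+ketamine. Among 12 regulators, EIF4EBP1, a repressor of cap-dependent translation that mTOR inactivates, rose by 1.02 ± 0.030 with E2+ketamine, and EIF4E, which binds the cap, fell by -1.29 ± 0.054 with E2+2R6R-HNK.

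The 77 mitochondrial ribosomal proteins, which build the separate ribosome of the mitochondrion, gave 32 higher and 35 lower with E2+ketamine (median 0.01; all genes: 34.3% and 37.4%). With E2+2S6S-HNK they gave 6 higher and 46 lower (median -0.17; all genes: 24.0% and 35.7%). MRPL54 rose by 0.98 ± 0.045 with E2+ketamine and MRPL1 fell by -1.56 ± 0.101 with E2+2R6R-HNK. In the ketamine interaction with E2, 64 of the 77 were called higher by edgeR (all genes: 24.5%), with a median of 0.30 under TMM scaling, and here too other scalings were not run for the list.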

How the data were processed

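RNA-seq was made from HMC3 cells in 16 libraries, 2 for each of 8 conditions, grouped by the labels. The authors deposited raw counts per gene, described in the methods as uniquely mapped read pairs, from paired-end Ovation libraries. The submitters' processing notes name TopHat2 2.0.14, Bowtie2 2.2.6, featureCounts 1.4.6 and hg19. Even values made up 65.8% of counts from 1 to 9 and 51.2% of the members' counts, so some low values may count both reads of a pair; counts were also halved as an alternative. All 16 libraries and 8 group means were fitted in edgeR 4.0.16 (R 4.3.3) with TMM factors and filterByExpr (16004 of 25370 genes), with Benjamini-Hochberg adjustment over genes, and over 4 pairs and genes for compounds. A call is an adjusted p under 0.05. The 95% intervals and SE come from that fit. GC content and length came from GENCODE annotation on GRCh37, matched for 95.8% of genes tested, and were corrected with loess (span 0.5). The members and all gene lists were chosen with earlier results of these data known. Genes named were 16 picked for role, the 3 largest rises and falls per treatment among called members whose libraries did not overlap vehicle, the 2 largest of each sign per interaction and metabolite pair, the 3 with the smallest range, and the extremes of the other lists, except a few that are not reported here. Others, such as RPL9, were named after their values were seen. Alternatives were DESeq2 1.42.0, its size factors, upper-quartile and library-total scaling, no filter, a fit on the compared groups only, the GC correction, a replicate block and leaving out each library. The fit was tested on simulated data. With a trend by GC content added to them, the uncorrected fit called many unchanged genes, and the fit after the GC correction called few. The added trend was of the kind the correction removes, so this checks only the working of the correction. The source of the trend in the real libraries was not tested. Library totals limit precision for counting error only, and the 3-count limit for a count of 0 covers that error alone.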

Additional observations from a re-analysis of the deposited data

Results flagged for a closer look

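The effect of each drug differed with and without E2 by the test of the interaction itself (edgeR, adjusted p under 0.05). For ketamine 69 of 76 members were past the threshold with TMM scaling (all genes: 24.5% higher and 13.1% lower). The largest values were in RPL23A (0.57) and RPS24 (0.48), which were 0.46 and 0.27 with the GC and length correction. With library totals alone 36 members were higher and 7 lower, and the share of all genes called with that scaling is not given. For 2R6R-HNK 64 were (all genes: 31.5% and 25.2%), with RPS24 (0.97) and RPS6 (0.66) highest and RPS10 (-0.80) and RPS15 (-0.52) lowest, which were 0.56, 0.34, -0.70 and -0.16 with the correction. For 2S6S-HNK 66 were (all genes: 32.9% and 32.2%), with RPS24 (1.44) and RPL7 (1.0985) highest and RPS2 (-0.83) lowest, which were 0.81, 0.497 and -0.29 with the correction, where RPL9 was lowest at -1.06. RPS10 overlaps a read-through gene.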

How the results depend on the processing

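Of 416 comparisons of a count of members with its value under another setting, 398 stayed within 1.5 times. Among the other values (single genes, medians and shares) 2228 kept direction and call or moved within the replicate spread, 69 moved further, 33 changed sign, 39 lost their call and 39 gained one. With the GC and length correction, with or without the replicate block, the number of lower members became 23 for E2, 21 for ketamine and 14 for E2+ketamine, and the median of members minus that of all genes for E2 turned to 0.00996 (0.0102 with the replicate block). In the ketamine interaction the correction gave 5 lower, upper-quartile factors 4, and library totals 36 higher and 7 lower. For 2R6R-HNK the correction gave 19 higher in the interaction. Lower members with E2+2S6S-HNK numbered 13 with upper-quartile factors and with library totals. Library totals gave 24 members higher with ketamine than with 2R6R-HNK and 23 than with 2S6S-HNK. Leaving out a library gave 9 to 16 members higher with 2S6S-HNK than with 2R6R-HNK, 9 without the first 2R6R-HNK library. Shares of all genes called are given for TMM scaling and, outside the compound pairs, for the GC and length correction only. The causes were not tested.

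Among the single genes compared under these settings, those named below changed sign with the correction, here without and with the replicate block. The list does not cover all 76 members. For E2 these were RPL13A (-0.0344 and -0.0345), RPS19 (-0.0647 and -0.0647) and RPL41 (0.0438 and 0.0438). For ketamine they were RPL41 (0.0424 and 0.0424), RPL3 (-0.0996 and -0.0996), RPL5 (0.00924 and 0.00921) and RPS26 (0.0295 and 0.0296). RPL3 was -0.237 and -0.237 with 2S6S-HNK. RPLP2 was -0.0584 and -0.0584 with 2R6R-HNK, -0.0665 and -0.0664 with 2S6S-HNK, -0.0543 and -0.0542 with E2+2R6R-HNK, and -0.117 and -0.117 with E2+ketamine. With E2+2S6S-HNK RPL5 was 0.115 and 0.115 and RPS6 0.0711 and 0.0711, and RPS2 was -0.0802 without the block. RPL3 with 2R6R-HNK was 0.0224 with upper-quartile factors, and RPL5 with E2+2S6S-HNK was 0.0273 with those and with library totals. The labels do not say whether libraries with the same replicate number share a batch. The correlation of replicate differences between conditions was -0.0258 to 0.0451 over 16004 genes. It was -0.147 to 0.0874 over 10701 genes above a mean log2 CPM of 2, but -0.605 to 0.819 over the 76 members. The replicate block alone gave 31 higher for ketamine where 32 were called, and 22 lower for 2S6S-HNK against 2R6R-HNK where 25 were. RPL36A, RPL17 and RPS10 rest on the fewest counts of the members.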
